A study of Mus musculus with 6 samples.

Results

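Malat1, Neat1, Miat, Meg3, H19, Kcnq1ot1 and Airn are long noncoding RNAs that act in the nucleus or are expressed from 1 parental allele. These 7 genes, out of 57180 gene identifiers in the files, were taken by name as abundant nuclear and imprinted noncoding RNAs. They were chosen by their depth-scaled counts, their relation to the library with low endothelial markers and the contrast between the groups, so their values below are a description. All 7 were found by matching identifiers to mouse symbols.

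RNA-seq was carried out on primary corneal endothelial cells, the layer that keeps the cornea clear by pumping out fluid. The first group, 3 libraries labelled Tcf4+/-, came from Col8a2Q455K/Q455K/Tcf4+/- mice, which are heterozygous for the E protein transcription factor gene Tcf4. The second, 3 libraries of the Col8a2 group, came from Col8a2Q455K/Q455K mice. Both groups are thus homozygous for the mutant Col8a2 collagen allele that serves as a model of Fuchs endothelial corneal dystrophy, and no wild-type cornea was analysed here. The labels do not state age, how the Tcf4 allele was made or whether corneas were pooled, and p-values measure only the spread between these libraries. Tcf4 itself stood at 440, 599 and 373 CPM (counts scaled to library size by TMM) in the libraries labelled Tcf4+/- and at 312, 469 and 430 CPM in the Col8a2 libraries. The log2 fold change of Tcf4 was 0.22, with a standard error (SE) of 0.33. The targeted gene was therefore not lower in the libraries labelled Tcf4+/-, and every direction below rests on the labels alone.

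Total estimated counts ran from 30344161 to 54265479 per library, with Tcf4+/- replicate 3 the shallowest, and between 19680 and 22538 genes had a count. Tcf4+/- replicate 3 also stood apart in its markers. The 18 corneal endothelium markers all had counts in every library, but averaged 9.39, 9.70 and 8.46 log2 CPM in Tcf4+/- replicates 1 to 3, against 9.08, 9.41 and 9.52 in the Col8a2 libraries. Levels of transcripts that lack a poly(A) tail depend on how cDNA was primed, which the labels do not state beyond the SMART-Seq HT Kit.

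Malat1 is held in nuclear speckles, where splicing factors are stored, and Neat1 is the scaffold around which paraspeckle proteins gather. Miat, also named Gomafu, is a nuclear RNA known from neurons and retina. The other 4 belong to imprinted domains, in which Meg3 and H19 are transcribed from the maternal allele and Kcnq1ot1 and Airn from the paternal allele. H19 is the precursor of miR-675, and Kcnq1ot1 and Airn silence neighbouring genes in cis. Meg3 lies in a domain with the paternally expressed growth regulator Dlk1.

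Tcf4 binds E-boxes, so promoter windows were read for the motif CANNTG, which is the same on both strands. RefSeq windows of build GRCm38.p6, from 250 bases before to 50 bases after a start, were matched for 5 of the 7 genes. Malat1 is shown as the most abundant member, Kcnq1ot1 as the window with most matches, and the second Meg3 start as the one of its starts with a match. Capitals mark CANNTG, and each sequence reads 5′ to 3′ along the gene. The Malat1 window is chr19:5802623-5802922 on the minus strand, the Kcnq1ot1 window chr7:143296498-143296797 on the minus strand and the Meg3 window chr12:109545148-109545447 on the plus strand.
Malat1: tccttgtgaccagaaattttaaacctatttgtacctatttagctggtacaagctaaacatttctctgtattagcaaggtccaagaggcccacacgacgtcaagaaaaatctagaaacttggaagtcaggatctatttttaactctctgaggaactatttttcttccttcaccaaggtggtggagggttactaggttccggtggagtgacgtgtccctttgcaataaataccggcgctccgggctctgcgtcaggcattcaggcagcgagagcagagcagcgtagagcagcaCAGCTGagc
Kcnq1ot1: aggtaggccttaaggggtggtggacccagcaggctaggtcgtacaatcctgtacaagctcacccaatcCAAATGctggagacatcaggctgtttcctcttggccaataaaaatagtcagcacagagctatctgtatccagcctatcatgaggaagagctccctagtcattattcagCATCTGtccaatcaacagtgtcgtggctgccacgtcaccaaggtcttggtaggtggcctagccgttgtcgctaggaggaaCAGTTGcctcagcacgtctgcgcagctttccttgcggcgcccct
Meg3: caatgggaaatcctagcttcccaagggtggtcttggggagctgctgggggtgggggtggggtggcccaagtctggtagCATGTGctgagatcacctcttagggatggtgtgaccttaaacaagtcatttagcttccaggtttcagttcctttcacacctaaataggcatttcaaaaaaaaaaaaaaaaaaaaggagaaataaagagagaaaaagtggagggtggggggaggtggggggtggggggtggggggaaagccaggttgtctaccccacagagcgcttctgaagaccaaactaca

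Malat1 had 1 CANNTG and Kcnq1ot1 had 3, as printed above. Meg3 had 1 at the start shown and 0 at the other, Airn had 1 and Miat had 0. CANNTG occurred in 4 of the 6 windows of these genes and in 72.3% of all 32851 RefSeq windows. The Malat1 match was CAGCTG, a form of CANNTG found in 16.3% of all windows. CAGGTG or CACCTG, further forms of CANNTG, occurred in 0 of the 6 windows and in 20.2% of all. These are matches of letters only, and no binding was measured.

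Malat1 was by far the most abundant of the 7 and was high in a single library. It stood at 1770.4, 2272 and 5379 CPM in Tcf4+/- replicates 1, 2 and 3, against 2157, 1809.7 and 2099 CPM in the Col8a2 libraries. Tcf4+/- replicate 3 was high and the other 5 libraries lay close together, with the groups overlapping. Per length, Malat1 stood at 3011, 3698 and 7959 TPM in the Tcf4+/- libraries and at 3367, 3479 and 3585 TPM in the Col8a2 libraries. By TPM it ranked between 15 and 34 among all genes of a library. The TPM of Malat1 rests on an estimated length of only 708 to 887 bases, against 6983 bases for its long transcript, so its TPM and its rank depend on that estimate.

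The mean of Malat1 was 3140.3 ± 1955 CPM in the Tcf4+/- group and 2022 ± 186 CPM in the Col8a2 group (SD, n = 3 each). The fitted log2 fold change was 0.64 (SE 0.46, 95% interval -0.40 to 1.67). This value rested on Tcf4+/- replicate 3: without that library the log2 fold change of Malat1 was -0.0080. In bulk RNA, fewer cells of a type and less RNA per cell cannot be told apart.

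**Figure D1:**
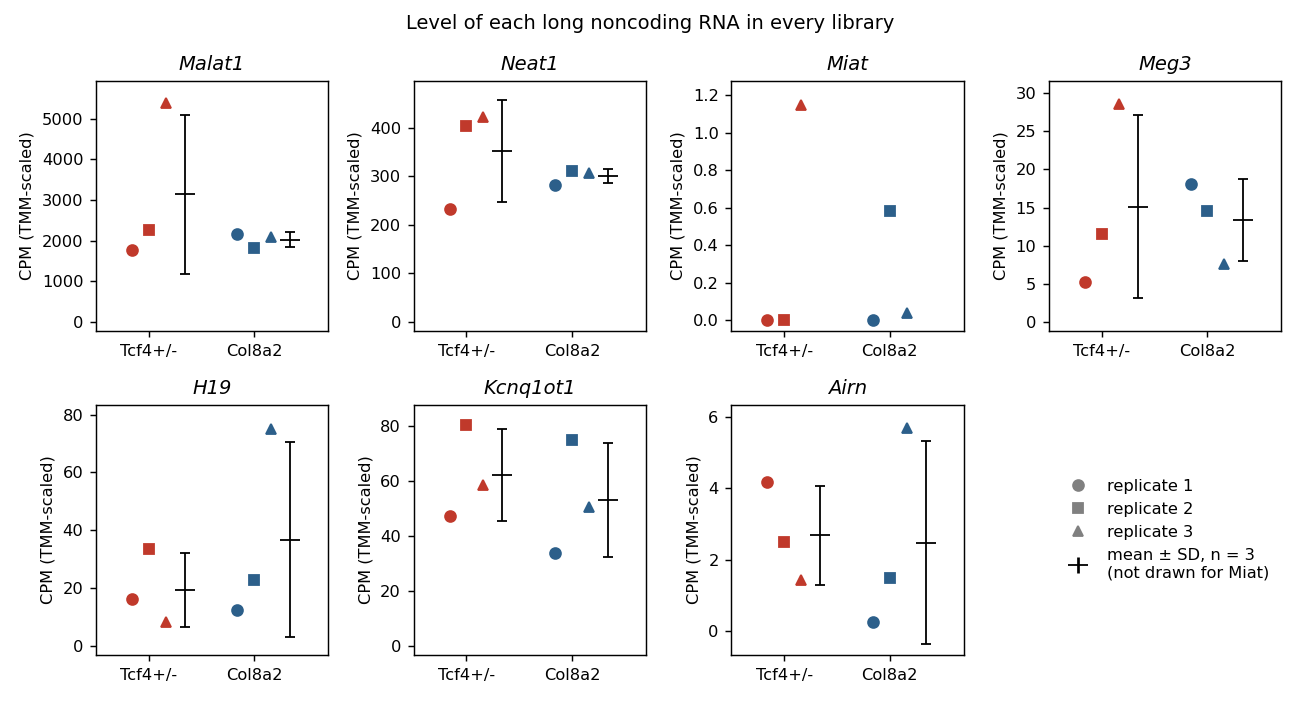
Level of each of the 7 long noncoding RNAs in CPM, 1 panel a gene, in the libraries labelled Tcf4+/- (red) and Col8a2 (blue). Symbols are single libraries and bars are mean ± SD (n = 3, not drawn for Miat); Malat1 is high in Tcf4+/- replicate 3 alone, at 5379 CPM, and H19 in Col8a2 replicate 3, at 75.1 CPM.

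Malat1 set much of the level of long noncoding RNA as a class. Genes typed as long noncoding in GENCODE M21 took 0.789%, 0.942% and 1.30% of all counts in the Tcf4+/- libraries and 0.822%, 0.905% and 0.876% in the Col8a2 libraries. Malat1 alone made up 22.1%, 24.5% and 40.5% of these counts in the Tcf4+/- libraries and 25.5%, 21.3% and 23.7% in the Col8a2 libraries. The higher share in Tcf4+/- replicate 3 was therefore mainly Malat1. Genes of the mitochondrial genome took 11.8%, 9.33% and 10.8% of counts in the Tcf4+/- libraries and 11.8%, 8.46% and 10.6% in the Col8a2 libraries, so their share of counts in replicate 3 lay within the range of the others. On the TPM scale this did not hold for mitochondrial tRNA genes, which took 0%, 15.6% and 15.8% in Tcf4+/- replicates 1, 2 and 3 and 0% in the Col8a2 libraries. Their part in the high Malat1 of replicate 3 was not tested.

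Some reads of the Malat1 locus were assigned to Gm37376, a gene annotated on the opposite strand of Malat1, and without strand the 2 cannot be told apart. Gm37376 held 6.93%, 18.3% and 12.4% of the counts of the pair in the Tcf4+/- libraries and 12.3%, 8.47% and 10.1% in the Col8a2 libraries. Its own level was 132, 507 and 761 CPM in the Tcf4+/- libraries and 304, 167 and 236 CPM in the Col8a2 libraries. Like Malat1, it was highest in Tcf4+/- replicate 3. With the counts of both genes summed, the log2 fold change of Malat1 was 0.68.

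Neat1 was the next most abundant per length and varied little. It stood at 232, 403 and 422 CPM in the Tcf4+/- libraries and at 283, 311 and 307 CPM in the Col8a2 libraries. The Tcf4+/- libraries spanned the Col8a2 range on both sides, with replicate 1 below it and replicates 2 and 3 above. Neat1 averaged 352 ± 104 CPM in the Tcf4+/- group and 300.3 ± 15.3 CPM in the Col8a2 group (SD, n = 3 each), or a log2 fold change of 0.23 (SE 0.32, 95% interval -0.49 to 0.95). On the TPM scale the sign turned, with 83.2, 141 and 112 TPM in the Tcf4+/- libraries, against 96.9, 131 and 113 TPM in the Col8a2 libraries. On log2(TPM + 1) Neat1 was at -0.04, where the median of all genes tested was -0.15, so the whole scale had moved.

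The ratio of Malat1 to Neat1 within a library, taken per length, was 36.2, 26.2 and 71.0 in the Tcf4+/- libraries and 34.8, 26.6 and 31.8 in the Col8a2 libraries. In CPM, where no length enters, the same ratio was 7.62, 5.64 and 12.8 in the Tcf4+/- libraries and 7.63, 5.82 and 6.83 in the Col8a2 libraries. The size of the ratio thus hung on the short estimated length of Malat1, whereas Tcf4+/- replicate 3 stood above the rest on both scales.

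Miat was at or near 0. It had 0, 0 and 34 counts in Tcf4+/- replicates 1, 2 and 3, against 0, 29 and 2 counts in the Col8a2 libraries. Nearly all of its counts thus came from 1 library of each group. A count of 0 allows up to 3 counts, which is 0.0635 and 0.0545 CPM in Tcf4+/- replicates 1 and 2 and 0.0636 CPM in Col8a2 replicate 1, for counting error only. The counts summed to 34 in the Tcf4+/- group and 31 in the Col8a2 group, and Miat did not pass the filter on low counts.

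Meg3 was low, and its libraries differed widely within both groups. It stood at 5.31, 11.6 and 28.5 CPM in the Tcf4+/- libraries and at 18.1, 14.5 and 7.56 CPM in the Col8a2 libraries. The lowest and the highest value both fell in the Tcf4+/- group, 5.37-fold apart. The means were 15.1 ± 12.0 CPM in the Tcf4+/- group and 13.4 ± 5.37 CPM in the Col8a2 group (SD, n = 3 each). The log2 fold change of 0.18 (SE 0.63, 95% interval -1.23 to 1.59) was -0.67 without Tcf4+/- replicate 3 and -0.11 without Col8a2 replicate 3.

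H19 was the most abundant of the 4 imprinted members per length in 5 of 6 libraries, Tcf4+/- replicate 3 being the exception. It stood at 16.2, 33.5 and 8.19 CPM in the Tcf4+/- libraries and at 12.3, 22.7 and 75.1 CPM in the Col8a2 libraries, a range of 9.17-fold. Col8a2 replicate 3 was high, and the other 5 libraries of both groups were interleaved. H19 averaged 19.3 ± 12.9 CPM in the Tcf4+/- group and 36.7 ± 33.7 CPM in the Col8a2 group (SD, n = 3 each). The log2 fold change was -0.93 (SE 0.69, 95% interval -2.47 to 0.62). Without Col8a2 replicate 3 it was 0.14, so the sign rested on that library.

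H19 carries the hairpin of miR-675 inside its transcript, and both mature arms from RefSeq (GRCm38.p6, minus strand of chromosome 7) are shown for that reason, with the seed, bases 2 to 8, in capitals.
mmu-miR-675-5p: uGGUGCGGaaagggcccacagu
mmu-miR-675-3p: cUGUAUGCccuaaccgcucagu
The row of the Mir675 hairpin had 0 counts in every library, and small RNAs were not analysed here, so H19 is read from its long transcript only.

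The 2 libraries with most Meg3 were those with least H19, but such an order did not hold throughout. Tcf4+/- replicate 1 had the lowest Meg3, at 5.31 CPM, and less H19 than Col8a2 replicate 2, at 16.2 against 22.7 CPM. Tcf4+/- replicate 3 and Col8a2 replicate 1 had the highest Meg3, at 28.5 and 18.1 CPM, and the lowest H19, at 8.19 and 12.3 CPM. The same 2 libraries had nearly no Xist, the RNA that coats the inactive X chromosome. Xist was at 1.21 CPM in Tcf4+/- replicate 3 and 0.509 CPM in Col8a2 replicate 1, against 46.0 and 75.2 CPM in the other Tcf4+/- libraries and 79.8 and 74.1 CPM in the other Col8a2 libraries. Each group thus held 1 library with nearly no Xist, and the part of this difference in H19 and Meg3 was not tested.

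The ratio of H19 to Meg3 per length was 7.02, 5.37 and 0.834 in the Tcf4+/- libraries and 3.08, 5.34 and 24.6 in the Col8a2 libraries. It thus ran from below 1 in Tcf4+/- replicate 3 to its highest in Col8a2 replicate 3. H19 to Igf2, the growth factor gene of the same domain that is expressed from the other allele, was 0.281, 0.263 and 0.0887 per length in the Tcf4+/- libraries and 0.181, 0.316 and 0.453 in the Col8a2 libraries. Igf2 thus exceeded H19 per length in all 6 libraries.

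Kcnq1ot1 was present in every library. It stood at 47.4, 80.5 and 58.8 CPM in the Tcf4+/- libraries and at 33.7, 75.1 and 50.5 CPM in the Col8a2 libraries. Replicate 2 was the highest library of each group, and the groups overlapped. The means were 62.3 ± 16.8 CPM in the Tcf4+/- group and 53.1 ± 20.8 CPM in the Col8a2 group (SD, n = 3 each), or a log2 fold change of 0.23 (SE 0.35, 95% interval -0.56 to 1.02). Kcnq1, the potassium channel gene it lies in on the opposite strand, had between 47 and 389 counts per library against 1589 to 4437 for Kcnq1ot1. These counts are not per length, and without strand the genes cannot be told apart where they overlap. Mean TPM over all libraries was 1.86 for Kcnq1 and 1.80 for Kcnq1ot1. Kcnq1 was higher in Col8a2 replicates 1 and 3, at 4.96 and 3.04 against 2.23 and 0.66 TPM, and lower in the others.

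Airn was low, and its spread between libraries was wide. It had 197, 137 and 42 counts in the Tcf4+/- libraries and 12, 74 and 288 counts in the Col8a2 libraries. In CPM this was 4.17, 2.49 and 1.42 in the Tcf4+/- libraries and 0.255, 1.49 and 5.68 in the Col8a2 libraries, so the Col8a2 group held both the lowest and the highest value, 22.3-fold apart. The log2 fold change of 0.12 (SE 1.21, 95% interval -2.58 to 2.82) was 1.62 without Col8a2 replicate 3 and -0.42 without Col8a2 replicate 1. Airn overlaps Igf2r on the opposite strand, and Igf2r, which had 564 to 2101 counts per library, cannot be told apart from it where they overlap. The weighted length of Airn ran from 723 to 1312 bases, and its isoforms that matched GENCODE M21 from 435 to 1375 bases. The TPM of Airn thus rests on short estimated lengths.

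Of the 7 genes, 6 passed the filter on low counts and 0 passed edgeR's quasi-likelihood test at a Benjamini-Hochberg adjusted p of 0.05, where 0% of the 17639 genes tested passed. At an unadjusted p of 0.05 the counts were 0 of 6 and 427 of 17639, or 2.42%. DESeq2 called 0 of the 7 genes and 107 of all genes, and limma voom called 0 of all genes. For 0 of the 7 were the groups free of overlap in CPM, where 8.1% of all genes tested were (4.53% with the libraries labelled Tcf4+/- higher and 3.57% with them lower). The contrast was in view when the genes were chosen, so nothing is read from these counts. Of the 6, 5 were fitted higher and 1 lower in the libraries labelled Tcf4+/-, where 50.1% of all genes tested were fitted higher, and the sign of each of the 6 turned under at least 1 alternative.

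**Figure D2:**
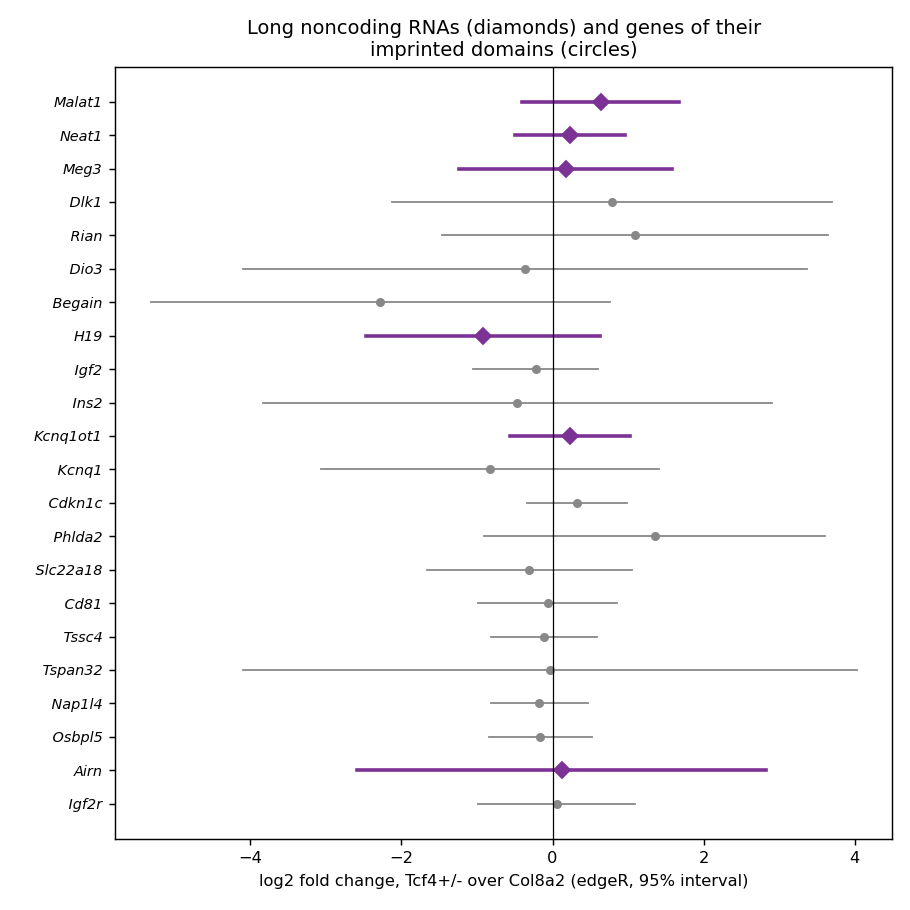
Log2 fold change of Tcf4+/- over Col8a2 with its 95% interval from edgeR for the 6 long noncoding RNAs tested (diamonds) and, under each imprinted one, the genes of its domain with a mean of at least 1 CPM (circles). All intervals include 0, and Airn is the widest of the diamonds, from -2.58 to 2.82.

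Levels per gene can be set beside one another only per length. Mean TPM over the 6 libraries was 4183 for Malat1, 113 for Neat1, 33.7 for H19, 5.42 for Meg3, 3.54 for Airn, 1.80 for Kcnq1ot1 and 0.12 for Miat. Malat1 stood above Neat1 and Neat1 above H19 in all 6 libraries, with H19 closest to Neat1 in Col8a2 replicate 3, at 88.9 against 113 TPM. Meg3, Airn and Kcnq1ot1 overlapped in TPM across libraries and their order is not resolved.

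The deposited gene length is the mean over the isoforms of a gene, weighted by their abundance, and the choice of genes did not use it. For Neat1 it was 3176, 3171 and 3254 bases in the Tcf4+/- libraries and 3158, 3219 and 3199 bases in the Col8a2 libraries. The annotated Neat1 isoforms run from 711 to 20771 bases in GENCODE M21. If those lengths hold, the longest Neat1 isoform, which is the one that builds paraspeckles, can have made up at most 12.3%, 12.3% and 12.7% of the estimated Neat1 transcripts in the Tcf4+/- libraries and at most 12.2%, 12.5% and 12.4% in the Col8a2 libraries. This limit was alike in the 6 libraries. It is a share of transcripts and not of counts, since a longer transcript gives more reads, so it does not show which Neat1 isoform most reads came from.

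The weighted length of Malat1 was far below that of its long transcript. It was 859, 804 and 708 bases in the Tcf4+/- libraries and 858, 887 and 871 bases in the Col8a2 libraries, against 6983 bases for the longest of the 4 Malat1 isoforms, of 21 in the files, that matched GENCODE M21. Tcf4+/- replicates 2 and 3 were the shortest, and replicate 1 lay just above the lowest Col8a2 value. The difference in means was -81.5 bases (exact permutation test, two-sided, p = 0.2). The deposited length minus the effective length, which follows fragment size, came to 241, 155 and 150.1 bases in the Tcf4+/- libraries and 211, 234 and 234 bases in the Col8a2 libraries, and its part in the Malat1 lengths was not tested.

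The weighted length of H19 was 1113, 1228 and 1227 bases in the Tcf4+/- libraries and 958, 995 and 1153 bases in the Col8a2 libraries. Tcf4+/- replicate 1 fell below Col8a2 replicate 3, so the groups overlapped. The difference in means was 154 bases (exact permutation test, two-sided, p = 0.2). With 3 libraries against 3 this test cannot give a p below 0.1.

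Kcnq1ot1 had the widest range of weighted length. It was 73880.3, 54377 and 18633 bases in the Tcf4+/- libraries and 15486, 31434 and 82989.8 bases in the Col8a2 libraries. Both groups thus held libraries with long and with short estimates. Of the 7 Kcnq1ot1 isoforms in the files, 1 matched GENCODE M21, at 93092 bases, so the isoforms behind the shorter estimates are not known. Because TPM divides by this length, Kcnq1ot1 stood at 0.68, 1.57 and 2.63 TPM in the Tcf4+/- libraries and 2.23, 3.03 and 0.66 TPM in the Col8a2 libraries. Col8a2 replicate 1, the lowest in CPM, was the third highest in TPM. The log2 fold change turned to -0.15 on log2(TPM + 1), where the median of all genes tested was also -0.15. With limma voom on counts, Kcnq1ot1 stood at 0.27 and the median at 0.05, so Kcnq1ot1 fell further than the median did. The part of its own length estimates in the turned sign was not tested.

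Neat1, Meg3, Kcnq1ot1 and Airn differed in mean weighted length by 8.56, -419, 5660.4 and -98.8 bases (Tcf4+/- minus Col8a2). The exact permutation p, two-sided with 3 libraries each, was 0.8 for Neat1, 0.5 for Meg3, 0.9 for Kcnq1ot1 and 0.5 for Airn. Adjusted over the 6 genes by Benjamini-Hochberg, the p-values of the permutation test ran from 0.6 to 0.9. Miat had enough counts in 1 library of each group only and was not tested.

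**Figure D3:**
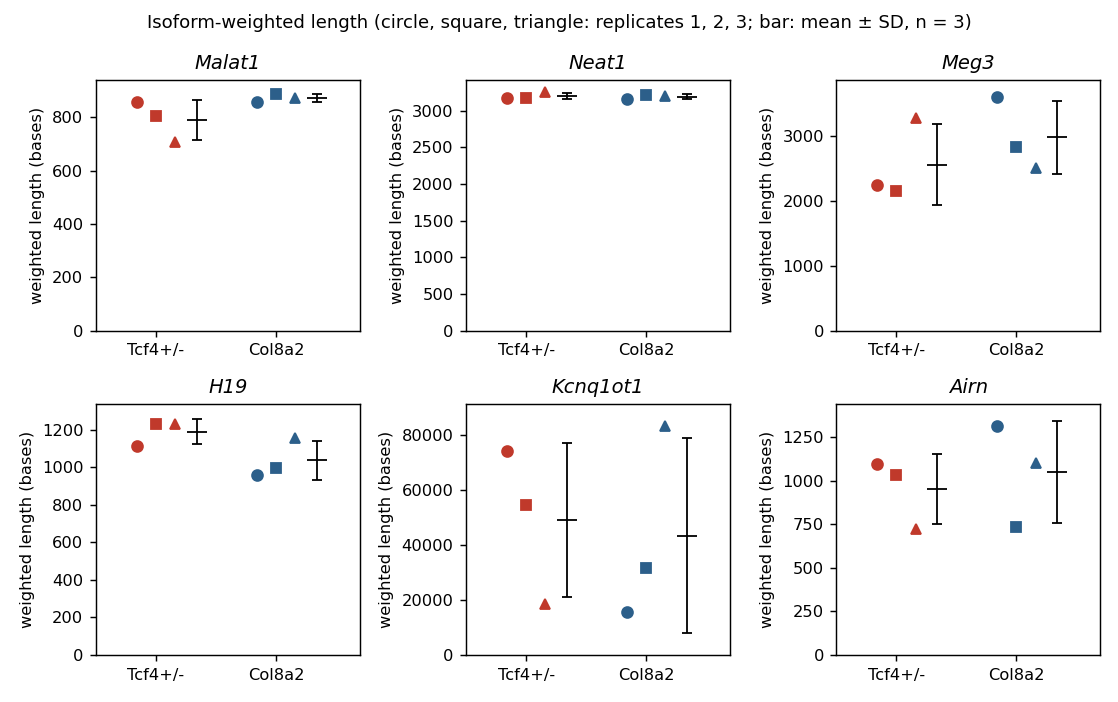
Isoform-weighted length in bases of 6 of the long noncoding RNAs in each library, Tcf4+/- in red and Col8a2 in blue, with mean ± SD (n = 3). Neat1 stays between 3158 and 3254 bases, whereas Kcnq1ot1 runs from 15486 to 82989.8 bases.

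Genes around the 4 imprinted RNAs did not pass the test either, but 0% of all genes tested passed. No list here or below could thus hold a gene that passed, and nothing is read from that. In the Dlk1 and Dio3 domain of Meg3, 4 of 6 listed genes were tested, 2 fitted higher and 2 lower, with 0 passing. Rian, another maternally expressed noncoding RNA next to Meg3, stood at 2.56, 1.91 and 1.92 CPM in the Tcf4+/- libraries and at 1.02, 0.988 and 0.987 CPM in the Col8a2 libraries. Begain, a gene next to Dlk1, stood at 0.0635, 1.09 and 0.506 CPM in the Tcf4+/- libraries and at 3.46, 2.50 and 2.15 CPM in the Col8a2 libraries. For Rian and Begain the groups did not overlap, in opposite directions, with log2 fold changes of 1.09 (SE 1.14) and -2.28 (SE 1.36). Over all genes tested, 8.1% were free of overlap. Rian and Begain were thus low in all libraries, and neither followed the order of Meg3. Dlk1 itself stood at 1.60 ± 0.405 CPM in the Tcf4+/- group and 0.925 ± 0.768 CPM in the Col8a2 group (SD, n = 3 each), and Dio3, which inactivates thyroid hormone, had a log2 fold change of -0.36.

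In the Igf2 and H19 domain, 2 of 4 listed genes were tested and 0 passed. Igf2 stood at 76.5, 158 and 134 CPM in the Tcf4+/- libraries and at 119, 106 and 205 CPM in the Col8a2 libraries. Its highest value fell in Col8a2 replicate 3, as that of H19 did, but Igf2 was not lowest in Tcf4+/- replicate 3. The log2 fold change was -0.22 (SE 0.37) for Igf2 and -0.47 (SE 1.50) for Ins2, an insulin gene.

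In the Kcnq1 domain, 10 of 11 listed genes were tested, with 2 fitted higher, 8 lower and 0 passing. Cdkn1c, the cell cycle inhibitor that Kcnq1ot1 silences in cis, stood at 181, 211 and 132 CPM in the Tcf4+/- libraries and at 117, 136 and 166 CPM in the Col8a2 libraries. Its log2 fold change was 0.33 (SE 0.29). Cdkn1c and Kcnq1ot1 were both highest in Tcf4+/- replicate 2 and lowest in Col8a2 replicate 1. Phlda2, another gene silenced in this domain, stood at 4.96 ± 3.91 CPM in the Tcf4+/- group and 1.94 ± 1.49 CPM in the Col8a2 group (SD, n = 3 each). Cd81, a tetraspanin, was the most abundant gene of the domain per length and stood at 492 ± 247 CPM in the Tcf4+/- group and 513 ± 137 CPM in the Col8a2 group (SD, n = 3 each). Kcnq1, Slc22a18, Tssc4, Tspan32, Nap1l4 and Osbpl5 had log2 fold changes of -0.82, -0.31, -0.12, -0.03, -0.18 and -0.16.

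In the domain of Airn, 2 of 5 listed genes were tested and 0 passed. Igf2r, the receptor that clears Igf2 and that Airn silences in cis, stood at 27.0, 38.1 and 19.02 CPM in the Tcf4+/- libraries and at 12.2, 39.0 and 29.9 CPM in the Col8a2 libraries. The groups overlapped, and the log2 fold change was 0.05 (SE 0.46). Among 26 other imprinted genes, 24 were tested, 11 fitted higher and 13 lower, with a median log2 fold change of -0.05 and 0 passing, where the median of all genes tested was 0.0011. The most abundant of them per length, Gnas, Ube3a and Snrpn, had log2 fold changes of 0.04, -0.08 and -0.22. Gnas, which encodes the stimulatory G protein subunit, stood at 929.7 ± 34.6 CPM in the Tcf4+/- group and 904 ± 104 CPM in the Col8a2 group (SD, n = 3 each). Peg10 and Peg12 were free of overlap, 2 of the 24 tested, where 8.1% of all genes tested were. Their log2 fold changes were -1.67 and 1.37, with levels below 3 CPM in every library. Both were named after their values were seen.

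Genes for proteins that gather with Neat1 and Malat1 were next set beside them. Of 25 paraspeckle protein genes, 16 were fitted higher and 9 lower, with a median log2 fold change of 0.21 and 0 passing. Among all genes tested, 50.1% were fitted higher. Hnrnpk, which Neat1 needs to form its long isoform, stood at 516 ± 98.6 CPM in the Tcf4+/- group and 427 ± 125 CPM in the Col8a2 group (SD, n = 3 each). Rbm3, a cold-induced RNA-binding protein, and Ewsr1, another RNA-binding protein, had log2 fold changes of -0.39 and 0.20. Hnrnpr and Taf15, at 0.31 and 1.04, were the 2 of 25 genes without overlap, where 8.1% of all genes tested had none. Both were named after their values were seen.

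Of 24 nuclear speckle protein genes, 16 were fitted higher and 8 lower, with a median log2 fold change of 0.23 and 0 passing. Among all genes tested, 50.1% were fitted higher. Srrm2, a core protein of speckles, stood at 329, 420 and 707 CPM in the Tcf4+/- libraries and at 365, 408 and 470 CPM in the Col8a2 libraries. Like Malat1, Srrm2 was highest in Tcf4+/- replicate 3, as were 22.6% of all genes tested. Others of the list, such as Sart1 and Clk1, were lowest in that library. Srsf5 and Srsf3, splicing factors, had log2 fold changes of 0.28 and 0.25 (SE 0.30 and 0.28). Srsf6, the only gene of the list without overlap, fitted lower at -0.29 and was named after its values were seen. That was 1 of 24 genes, against 8.1% of all genes tested. The mean log2 CPM of the speckle list was 6.53, 6.58 and 6.65 in the Tcf4+/- libraries and 6.49, 6.41 and 6.52 in the Col8a2 libraries.

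Regulators of imprints and Polycomb, the chromatin factors that several of these RNAs work through, had 21 of 22 genes tested, 10 fitted higher and 11 lower, a median log2 fold change of -0.03 and 0 passing. Rbbp7, Rbbp4 and Trim28, the most abundant per length, had log2 fold changes of 0.11, 0.15 and -0.27. Suz12, a subunit of Polycomb repressive complex 2, was the only gene without overlap, at 0.46, and was named after its values were seen. This was 1 of the 21 tested, against 8.1% of all genes tested.

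Among other long noncoding RNAs, 32 of 38 genes found in the files were tested, 18 fitted higher and 14 lower, with a median log2 fold change of 0.13 and 0 passing. Pantr1, Gas5 and Snhg20 were the most abundant per length. Pantr1, a noncoding RNA beside the Pou3f3 gene, stood at 124, 132 and 150.4 CPM in the Tcf4+/- libraries and at 81.2, 75.7 and 123 CPM in the Col8a2 libraries, at a log2 fold change of 0.53 (SE 0.29). The Pantr1 groups were free of overlap by a narrow margin. Gas5, a host of small nucleolar RNAs, stood at 37.8 ± 12.6 CPM in the Tcf4+/- group and 56.2 ± 53.9 CPM in the Col8a2 group (SD, n = 3 each). Snhg20 had a log2 fold change of 0.16. Snhg18, Jpx and Epb41l4aos were the other genes without overlap, at 0.53, 0.50 and -0.96, and were named after their values were seen. With Pantr1 these were 4 of the 32 tested, against 8.1% of all genes tested.

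Tcf4+/- replicate 3 held the highest value of Malat1, Neat1, Miat and Meg3, 4 of the 7 genes and 3 of the 6 tested, where 22.6% of all genes tested were highest in that library. This library was in view when the genes were chosen, so nothing is read from that count. Relative to the median of the other 5 libraries, its CPM was 2.56-fold for Malat1, 1.37-fold for Neat1, 2.46-fold for Meg3, 1.16-fold for Kcnq1ot1, 0.569-fold for Airn and 0.361-fold for H19. The high level was thus not shared by all 7 genes, and H19 was at its lowest there.

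Markers of several cell types moved with this library. The 18 endothelium markers summed to 30082, 33423 and 16795 CPM in the Tcf4+/- libraries and to 22288, 26536 and 33467 CPM in the Col8a2 libraries. The 7 photoreceptor markers, all with counts in every library, summed to 5094, 2541 and 10879 CPM in the Tcf4+/- libraries and to 3654, 2568 and 2645 CPM in the Col8a2 libraries. The 8 neuron markers summed to 410.1, 94.6 and 546 CPM in the Tcf4+/- libraries and to 241, 186 and 306 CPM in the Col8a2 libraries, with Rbfox3 at 0 in Col8a2 replicate 2 and Elavl4 at 0 in Col8a2 replicate 3. Tcf4+/- replicate 3 was thus lowest for the endothelium list and highest for the photoreceptor and neuron lists. Single endothelium markers differed in this. Slc4a11, Car3, Ptgds, Foxc1, Tfap2b and Tjp1 were lowest in a Col8a2 library, and the other endothelium markers in Tcf4+/- replicate 3.

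Lens markers summed to 91.5, 4194 and 11161 CPM in the Tcf4+/- libraries and to 627, 33.8 and 287 CPM in the Col8a2 libraries. Of the 15 lens genes, 12, 14 and 14 had counts in the Tcf4+/- libraries and 12, 8 and 11 in the Col8a2 libraries. Lens was thus high in Tcf4+/- replicates 2 and 3, whereas Malat1 in replicate 2, at 2272 CPM, lay close to the highest Col8a2 value of 2157 CPM. The part of these cell types in the levels of Malat1, Neat1, Miat and Meg3 was not tested.

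**Figure D4:**
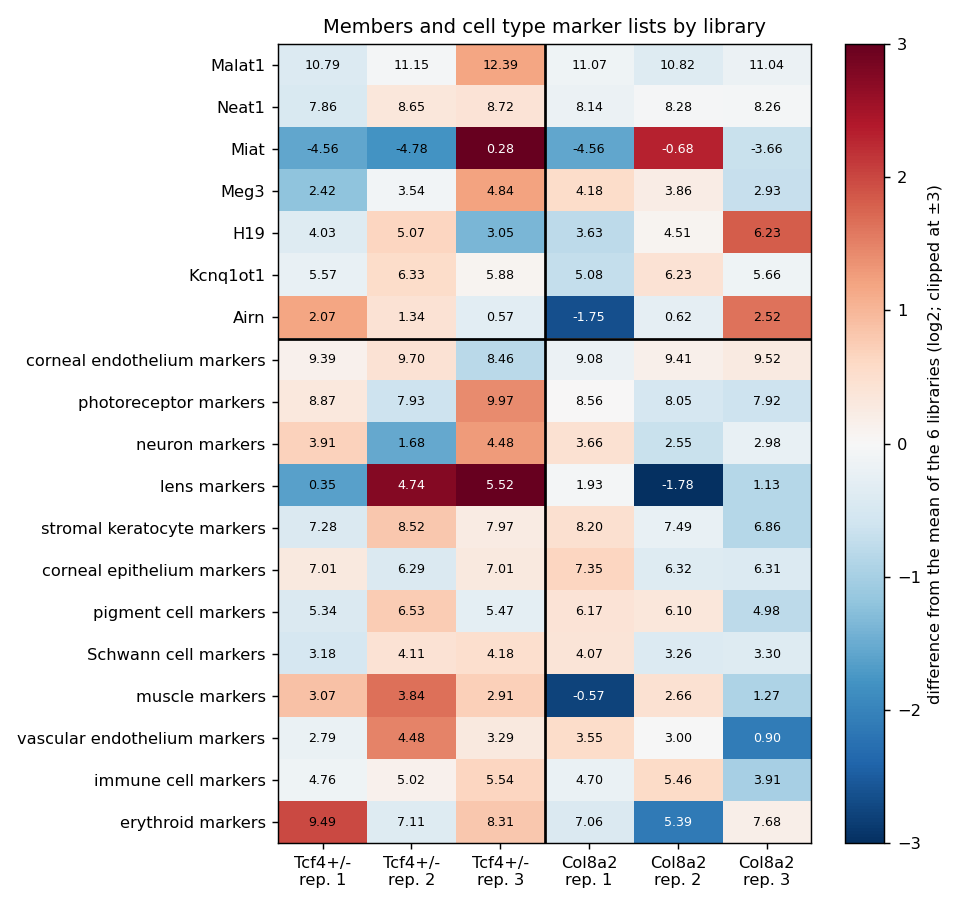
Log2 CPM (2 counts added) of the 7 long noncoding RNAs and mean log2 CPM of 12 cell type marker lists in each library, Tcf4+/- on the left and Col8a2 on the right. Numbers are the levels and colours the difference from the row mean; Tcf4+/- replicate 3 is lowest for corneal endothelium, at 8.46, and highest for photoreceptor markers, at 9.97.

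The genes whose profile over the 6 libraries was most like that of a member were searched among 9698 named genes of at least 10 CPM, by the root mean square difference of log2 CPM after centring. For Malat1 these were Rps24, a ribosomal protein gene, Cryab, a small heat shock protein of lens and other tissues, and Flywch2, at 0.11, 0.12 and 0.13 log2 units, where Malat1 itself had a standard deviation of 0.60 over the 6 libraries. All 3 were highest in Tcf4+/- replicate 3, with Cryab at 579, 732 and 1469 CPM in the Tcf4+/- libraries and 709, 647 and 673 CPM in the Col8a2 libraries. For Neat1 they were Mrpl34, Zfp703 and Clip3, at 0.07, 0.09 and 0.09, with a Neat1 standard deviation of 0.32. For Kcnq1ot1 they were Slc38a9, Zbtb6 and Phip, at 0.09, 0.10 and 0.12, with a standard deviation of 0.46. Likeness was looser for Meg3, where Shank1, Arhgef10 and Cxcl14 lay at 0.22, 0.22 and 0.24 with a standard deviation of 0.87. It was loosest for H19, where Zfp719, Iws1 and Shroom4 lay at 0.26, 0.33 and 0.36 with a standard deviation of 1.13. With 6 libraries, such likeness follows from the ordering of a few samples, and it was not tested.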

How the data were processed

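RNA-seq gene files of 6 libraries were used, grouped by sample title. The submitters' processing notes name build GRCm39 and, as tools, STAR, RSEM, DESeq2, fastp 0.23.2 and FastQC 0.12.1. The annotation used for counting is not given in the sources used here. Per the file headers, the authors deposited estimated counts (expected counts, not scaled to depth, 9.97% of values not whole), TPM (scaled to length and to a common sum) and 2 other columns in bases, isoform-weighted length and effective length.

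GENCODE M21 named 51933 of 57180 identifiers; its build, GRCm38, differs, so it gave only names, types, overlaps and isoform lengths. Counts were rounded, filtered with filterByExpr (17639 genes), scaled by TMM and tested with edgeR 4.0.16 (quasi-likelihood, robust, genotype only, Benjamini-Hochberg, threshold 0.05) in R 4.3.3. Scripts were tested on simulated counts with 200 changed genes. Precision is set by 3 libraries a group; the edgeR intervals carry the spread between libraries, and floors on counts cover counting error only. Lengths were compared by exact permutation tests in libraries with at least 10 counts. The members and lists were chosen with earlier results of these data known. Named were all members, domain genes of at least 1 CPM, the 3 genes of highest TPM in each other function list where none passed, and the 3 genes most like each member of at least 10 CPM. Alternatives were other scalings and filters, DESeq2 1.42.0, limma 3.58.1, TPM, a replicate block and leaving libraries out. Libraries of a group differed from each other by far more than counting noise (chi-square per degree of freedom of 233 to 414 in the 6 pairs).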

Additional observations from a re-analysis of the deposited data

How the results depend on the processing

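The count of genes called was 0 with edgeR under the main settings and 0 under 17 of 19 alternatives, 3 of them limma fits and the others edgeR; DESeq2 called 107 (76 higher, 31 lower) and leaving out 1 library in turn gave 0 to 4, the 4 without Col8a2 replicate 3. Same-numbered libraries deviated together with correlations of -0.02, 0.14 and -0.02. These gave no sign of pairing by number, but with so few libraries they cannot exclude it. With the replicate block 0 genes were called. The log2 fold changes were then 0.46 for Malat1, 0.18 for Neat1, -0.09 for Meg3, -0.60 for H19, 0.27 for Kcnq1ot1 and 0.84 for Airn.

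The sign of the log2 fold change was kept under 18 of 20 alternatives for Malat1, 16 of 19 for Neat1, 11 of 19 for Meg3, 18 of 19 for H19, 15 of 19 for Kcnq1ot1 and 15 of 18 for Airn. Leaving out 1 library in turn gave -0.0080 to 0.91 for Malat1, 0.07 to 0.45 for Neat1, -0.67 to 0.58 for Meg3, -1.58 to 0.14 for H19, -0.02 to 0.57 for Kcnq1ot1 and -0.42 to 1.62 for Airn. Without Tcf4+/- replicates 2 and 3 together, an alternative chosen after seeing the data that leaves 1 library assumed to vary like the others, the values were -0.20 for Malat1, -0.38 for Neat1 and -1.34 for Meg3. On log2(TPM + 1) the median of all genes moved to -0.15, and Neat1, Meg3 and Kcnq1ot1 stood at -0.04, -0.01 and -0.15 there. On log2(TPM + 0.1) the median was -0.18. With the endothelium level as a covariate, also chosen after seeing the data and set largely by the library the genes were chosen with, the values were 0.32 for Malat1, 0.20 for Neat1, -0.18 for Meg3, -0.64 for H19, 0.30 for Kcnq1ot1 and 0.61 for Airn; they do not bear on a cause.

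Differences in weighted length, leaving out 1 library in turn, ran from -18.4 to 23.5 bases for Neat1, -8248 to 25504 for Kcnq1ot1 and -255 to 32.1 for Airn, so their signs turned; the cause was not tested. Malat1, Meg3 and H19 kept their sign, also with effective length. Low levels left some settings without a value: Miat gave none under the main settings and Airn none with a mean of at least 5 CPM required.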
